A study of Mus musculus with 6 samples.

Results

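The genes described here encode membrane carriers for sugars, monocarboxylates and organic ions, measured by RNA sequencing in endothelial cells cultured from mouse brain. They were chosen by symbol: every row of the count table whose symbol starts with Slc2a, Slc5a, Slc16a, Slc22a or Slco and a digit, plus Mfsd2a. This gave 82 of 52636 rows, 79 of them protein-coding genes and 3 pseudogenes (Slc22a13b-ps, Slc2a4rg-ps and Slco6b1). Slc2a4rg-ps entered by its prefix only, and its symbol names a pseudogene of an Slc2a4 regulator, not a carrier. All cultures, controls included, had been treated with 4-hydroxytamoxifen (4-OHT) to delete genes. Living cells were then sorted by the surface proteins CD31 and VE-cadherin, without CD45, a marker of blood cells. The 3 control libraries came from Wild Type Control cells and the 3 others from Erg and Fli1 double knockout cells, called knockout below. Erg and Fli1 are ETS-family transcription factors of endothelial cells. The labels give neither the driver of the recombinase nor the age or number of mice behind a culture, and do not say whether replicates were separate cultures. Each p-value therefore weighs the difference between groups against the spread of these libraries only. By Xist and Y-linked transcripts each group held libraries of both sexes, so not all libraries of a group came from the same cells. The spread between libraries of the same sex may be technical.

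Brain capillary endothelium forms the blood-brain barrier, and because its junctions are tight, nutrients and hormones cross it on carriers. Slc2a genes encode GLUT carriers, which let glucose and related sugars pass down their gradient, and Slc5a genes encode sodium-coupled symporters for sugars, inositol, iodide and vitamins. Slc16a genes encode the MCT family for lactate, ketone bodies, thyroid hormone and aromatic amino acids. Slc22a genes encode carriers of organic cations, anions and carnitine, Slco genes encode organic anion transporting polypeptides for hormones and prostaglandins, and Mfsd2a carries lysophosphatidylcholine with docosahexaenoic acid into the brain.

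Library totals were 17274639 to 19410458 counts. Levels are CPM (counts of a gene scaled to a common library total) on TMM-scaled library sizes, and a gene was called where edgeR's quasi-likelihood test gave an adjusted p (Benjamini-Hochberg, over all tested genes) under 0.05. Erg was 656, 223 and 610 CPM in controls 1 to 3 and 70.2, 88.3 and 109 CPM in knockouts 1 to 3 (log2 fold change -2.48, SE 0.44, edgeR adjusted p 0.0137). Fli1 was 82.9, 64.2 and 92.1 CPM in the controls and 57.0, 68.5 and 66.7 CPM in the knockouts. It was not called with all libraries (log2 fold change -0.32, SE 0.15, edgeR adjusted p 0.181). Without control 2 Fli1 was called lower (log2 fold change -0.48, SE 0.09, edgeR adjusted p 0.00346). The counts are of whole genes, so reads from parts of Erg or Fli1 outside the deleted stretch cannot be told apart from the rest. Control 2 stood apart from controls 1 and 3. The summed level of 9 endothelial markers was 12970 and 13230 CPM in controls 1 and 3, 5969 CPM in control 2 and 2071 to 2752 CPM in the knockouts. For 9 fibroblast markers the sums were 458 and 1207 CPM, 13700 CPM, and 1663 to 2891 CPM in the same order, and for 9 mural cell markers 453 and 557 CPM, 3954 CPM, and 716 to 1490 CPM. Microglia and macrophage markers summed to at most 2.18 CPM, with C1qa and C1qb at 0, and choroid plexus markers to at most 1.31 CPM, with Ttr at 0. Astrocyte markers summed to 6.37 to 10.4 CPM, oligodendrocyte markers to 2.02 to 5.30 CPM and neuron markers to 3.06 to 33.2 CPM. Control 2, knockout 2 and knockout 3 carried Xist and the other libraries carried Y-linked transcripts. The part of the marker differences in the carrier results was not tested, so the results of most named carriers are given with and without control 2. A term for sex was fitted to all libraries as an alternative, and its result is given in the last section. In the fit without control 2, both controls carried Y-linked transcripts, while knockouts 2 and 3 carried Xist. Controls 1 and 3 were also the most alike pair of all libraries, so the p-values of that fit rest on controls of little spread. The part of sex in that fit was not tested.

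Of the 82 carrier rows, 15 had 0 counts in all libraries, 18 had 1 to 9 counts and 49 had at least 10. The filter on low counts kept 38 of the 49, and 14 of the 38 were called (36.8%, beside 24.7% of all 13901 tested genes). In the knockout 4 were higher (10.5%, beside 13.1% of all tested genes) and 10 were lower (26.3%, beside 11.7%), while 24 were not called. Of the 38, 29 had enough counts in both groups to pass the filter through either, and 2 of these were higher and 8 lower. The other 9 passed through 1 group alone, which favours a difference, so the counts over all 38 are a description. The share called among all genes that passed through either group is not given here, so the counts over the 29 are a description as well. All 9 endothelial markers were lower in the knockout as well, and their part in the carrier counts was not tested. The median log2 fold change of the 38 was -0.27, beside 0.00 over all tested genes. By family, the Slc16a genes gave 5 lower of 9 tested, and the Slc2a genes 1 higher and 3 lower of 10. The Slc5a genes gave 1 higher and 1 lower of 5, the Slc22a genes 1 lower of 7, the Slco genes 1 higher of 6, and Mfsd2a was not called. Without control 2, 40 carriers were tested, and 10 were higher (25.0%, beside 25.5% of all 14178 tested genes) and 16 lower (40.0%, beside 24.8%). The 26 called (65.0%, beside 50.3%) included all 14 of the fit with 6 libraries. Of the 40, 33 passed the filter through either group, and 7 of these were higher and 13 lower, again without such a share over all genes. A lower level in such bulk libraries can mean fewer cells of a type or less RNA per cell, and these cannot be told apart.

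**Figure D1:**
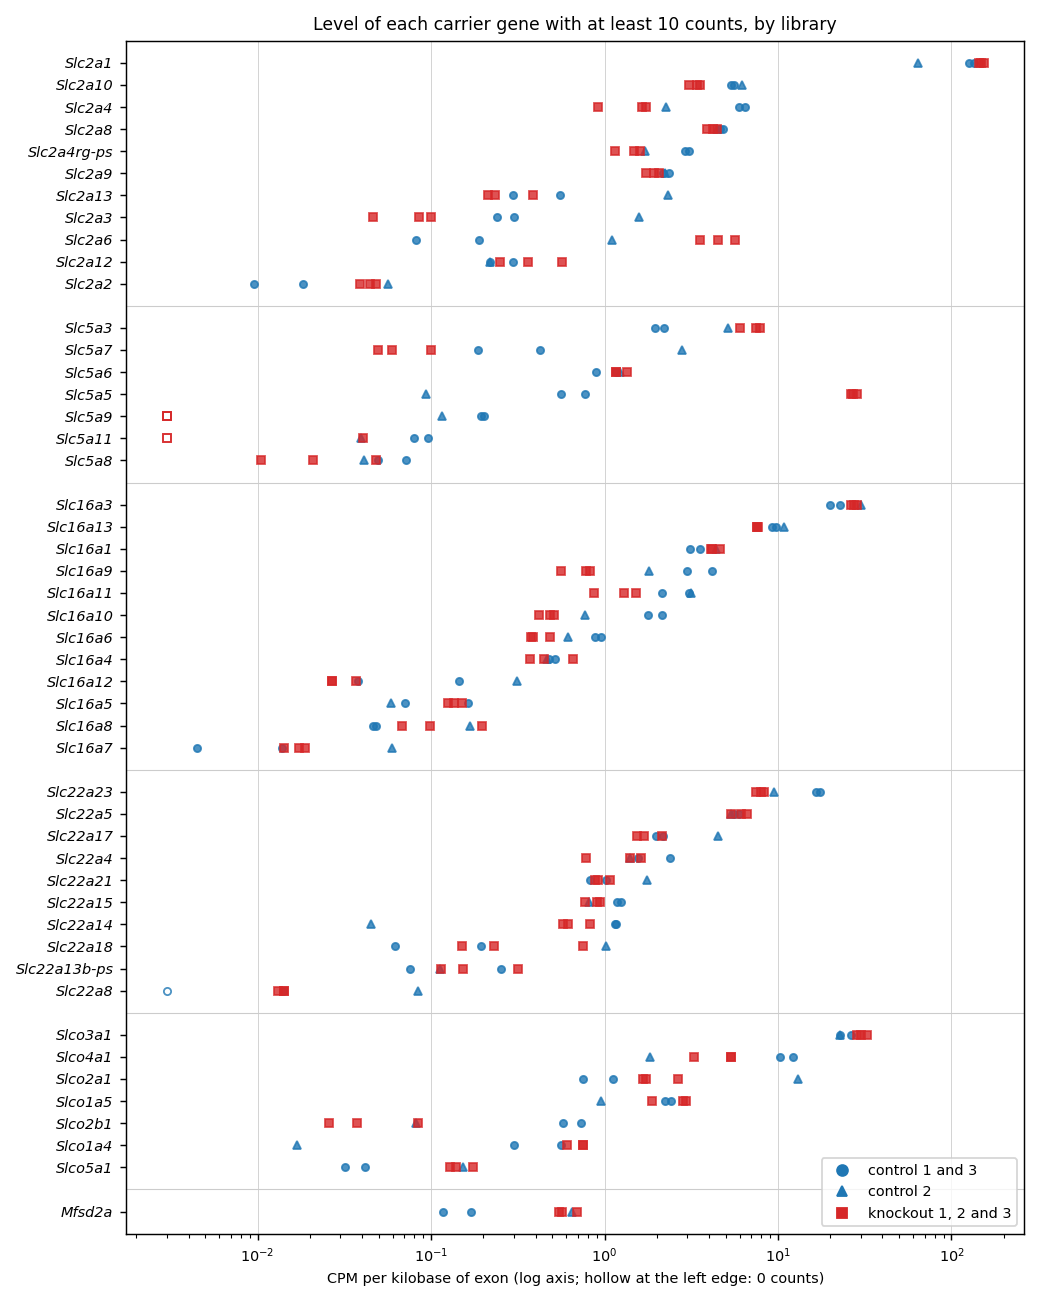
Level of 48 carrier genes with at least 10 counts in each of the 6 libraries, as CPM per kilobase of exon on a log axis, by family, with hollow points at the left edge for 0 counts. Slc2a1 is at the far right in every library, the 3 knockouts of Slc5a5 and Slc2a6 lie far to the right of their controls, and Slco2a1 and Slc2a13 are highest in control 2.

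ETS factors bind DNA at a GGAA core, so the promoter windows of members were searched for CCGGAAG and AGGAAG on both strands. Both end in GGAAG, but no stretch of GGAAG can belong to a match of both on 1 strand. RefSeq windows (GRCm38.p6, 250 bases before to 50 after a start site) were at hand for 65 of the 82 members, 72 windows in all. CCGGAAG was in 2 of the 72 windows, beside 8.86% of 32851 windows of all genes, and AGGAAG in 27 of the 72, beside 35.4%. The 2 carriers with CCGGAAG were Slc22a23 and Slco2b1. A link between these motifs and the levels in the knockout was not tested. Shown here are those 2 windows, the window of Slc5a5, which rose most, and that of Slc2a6, which rose and holds neither motif. All lie on the minus strand, written 5′ to 3′ with the motif matches on either strand in capitals.
Slc22a23 (chr13:34345169-34345468): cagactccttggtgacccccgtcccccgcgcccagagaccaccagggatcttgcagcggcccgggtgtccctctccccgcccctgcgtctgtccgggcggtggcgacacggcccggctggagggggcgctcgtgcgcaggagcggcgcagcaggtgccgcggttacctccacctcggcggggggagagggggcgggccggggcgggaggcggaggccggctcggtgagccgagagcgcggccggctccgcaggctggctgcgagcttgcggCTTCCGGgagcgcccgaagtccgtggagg
Slco2b1 (chr7:99711291-99711590): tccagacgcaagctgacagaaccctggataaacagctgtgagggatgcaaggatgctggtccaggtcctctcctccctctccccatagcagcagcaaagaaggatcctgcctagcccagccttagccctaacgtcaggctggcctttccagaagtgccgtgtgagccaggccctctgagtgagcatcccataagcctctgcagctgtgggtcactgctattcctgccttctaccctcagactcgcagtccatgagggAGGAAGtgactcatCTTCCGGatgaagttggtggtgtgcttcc
Slc5a5 (chr8:70892708-70893007): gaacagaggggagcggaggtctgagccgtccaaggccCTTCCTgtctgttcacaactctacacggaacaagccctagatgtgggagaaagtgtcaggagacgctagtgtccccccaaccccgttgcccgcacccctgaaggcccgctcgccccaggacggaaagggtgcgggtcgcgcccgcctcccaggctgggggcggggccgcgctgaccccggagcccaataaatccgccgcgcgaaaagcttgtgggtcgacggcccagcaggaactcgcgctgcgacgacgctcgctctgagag
Slc2a6 (chr2:27027949-27028248): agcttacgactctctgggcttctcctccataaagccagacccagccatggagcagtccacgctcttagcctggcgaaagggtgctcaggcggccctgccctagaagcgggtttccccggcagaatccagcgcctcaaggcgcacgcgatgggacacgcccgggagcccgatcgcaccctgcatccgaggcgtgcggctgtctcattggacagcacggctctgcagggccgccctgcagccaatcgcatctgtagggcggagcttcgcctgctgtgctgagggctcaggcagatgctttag
The capitals in the Slc22a23 window are CTTCCGG, the reverse complement of CCGGAAG, 22 bases past the start site. The Slco2b1 window holds AGGAAG 8 bases past the start and CTTCCGG 22 bases past it, and windows with both motifs made up 2.98% of all windows. The single match in Slc5a5 is CTTCCT, the reverse complement of AGGAAG, 213 bases before the start. Slco2b1 has 2 further windows (chr7:99695760-99696059 and chr7:99706793-99707092). The first holds AGGAAG 225 bases before its start site, and the other holds neither motif. A match of letters is not a binding site, and a window without one says only that these letters are not in it.

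Slc2a1 encodes GLUT1, the glucose carrier of the blood-brain barrier (GRCm38 chromosome 4, 119108711 to 119137983). It had the highest level per kilobase of exon of all carriers, with 108 CPM per kb in the controls and 149 in the knockouts. Slc2a1 was 472, 224 and 443 CPM in controls 1 to 3 and 507, 537 and 520 CPM in knockouts 1 to 3. The 3 knockouts lay above all controls, and control 2 lay far below the other two controls. The fitted log2 difference was 0.46 (95% interval -0.23 to 1.15), and Slc2a1 was not called (edgeR adjusted p 0.280). Without control 2 it was 0.15 (95% interval 0.02 to 0.29, edgeR adjusted p 0.0596). Slc2a1 made up 34.8% to 38.3% of the summed CPM of all 82 carriers in 5 libraries and 19.4% in control 2.

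Of the other glucose carriers, Slc2a6 rose, while Slc2a4, Slc2a3 and Slc2a10 fell. Slc2a6 encodes GLUT6, a carrier of internal membranes (chromosome 2, 27021363 to 27027998). It was 0.263, 3.54 and 0.603 CPM in the controls and 11.4, 18.2 and 14.4 CPM in the knockouts, so the groups did not overlap and control 2 was the highest control. This was a log2 difference of 3.32 (SE 0.90, edgeR adjusted p 0.0459). Without control 2 it was 5.04 (SE 0.36, edgeR adjusted p 4.89e-05). In both fits Slc2a6 passed the filter through the knockouts only, so both calls are a description and are not given as support. The call was lost in the 5 fits that each left out another library (edgeR adjusted p up to 0.139).

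Slc2a4 encodes GLUT4, the insulin-responsive carrier of muscle and fat (chromosome 11, 69942539 to 69948188). It was 22.4, 7.84 and 20.6 CPM in the controls and 3.19, 5.75 and 6.07 CPM in the knockouts. All knockouts lay below all controls, with control 2 nearest to them. In log2 units the change came to -1.76 (SE 0.47, edgeR adjusted p 0.0428) and -2.14 without control 2 (SE 0.24, edgeR adjusted p 3.70e-04). Leaving out any other library lost the call (edgeR adjusted p up to 0.131).

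Slc2a10 encodes GLUT10, whose human gene is mutated in arterial tortuosity syndrome (chromosome 2, 165503787 to 165519917). It was 20.0, 22.3 and 19.1 CPM in the controls and 12.7, 12.1 and 10.9 CPM in the knockouts. Here control 2 was close to the other controls, and the groups were well apart. The fit gave a log2 change of -0.78 (SE 0.11, edgeR adjusted p 0.00633) and -0.75 without control 2. Slc2a10 was called in all 6 fits that left out 1 library (edgeR adjusted p up to 0.0374).

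Slc2a3 encodes GLUT3, the high-affinity glucose carrier of neurons (chromosome 6, 122727809 to 122801640). It was 1.74, 11.4 and 2.19 CPM in the controls and 0.719, 0.614 and 0.334 CPM in the knockouts. The groups did not overlap, but control 2 alone held most of the control level. With all libraries Slc2a3 passed the filter through the controls only, so that call is not given as support. Its log2 change was -3.18 (SE 0.88, edgeR adjusted p 0.0492) and -1.84 without control 2 (SE 0.36, edgeR adjusted p 0.00523). The call was lost without control 3 or without any 1 knockout (edgeR adjusted p up to 0.157).

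Slc2a8, Slc2a9 and Slc2a13 were above 5 CPM on average and were not called in either fit. Slc2a8, for the intracellular GLUT8, was 15.4, 14.3 and 14.8 CPM in the controls and 12.5, 13.6 and 14.3 CPM in the knockouts (log2 fold change -0.14, edgeR adjusted p 0.321, and -0.20, edgeR adjusted p 0.142, without control 2). Slc2a9, for the urate carrier GLUT9, was 11.96, 11.3 and 11.02 CPM in the controls and 8.82 to 10.4 CPM in the knockouts (-0.24, edgeR adjusted p 0.162, and -0.28, edgeR adjusted p 0.0836, without control 2). Slc2a13, for a proton-coupled inositol carrier, was 2.48, 19.3 and 4.60 CPM in the controls and 3.24, 1.95 and 1.78 CPM in the knockouts, so that its control mean rested on control 2 (log2 fold change -1.92, edgeR adjusted p 0.141, and -0.63, edgeR adjusted p 0.192, without control 2). The pseudogene Slc2a4rg-ps was 8.69, 5.12 and 9.10 CPM in the controls and 4.42, 3.40 and 4.79 CPM in the knockouts, below all controls. It was lower only without control 2 (log2 fold change -1.11, edgeR adjusted p 0.00160, against -0.86 and 0.0711 with all libraries).

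In a companion list of 14 genes for glucose trapping and GLUT control, 2 of 12 tested rose and 3 fell, beside 24.7% of all tested genes called. Without control 2, 3 rose and 5 fell, beside 50.3% of all tested genes called. Hif1a, a transcription factor of the hypoxia response, was 342, 440 and 351 CPM in the controls and 833, 828 and 805 CPM in the knockouts. All knockouts lay above all controls (log2 fold change 1.12, SE 0.12, edgeR adjusted p 0.00342). Hk1, which phosphorylates glucose on entry, was 352, 292 and 354 CPM in the controls and 226, 210 and 231 CPM in the knockouts, again without overlap (log2 fold change -0.58, SE 0.10, edgeR adjusted p 0.0119). The Hk1 call was lost in 4 fits without 1 library, which left out controls 1 or 3 or knockouts 1 or 2 (adjusted p in edgeR up to 0.0627).

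Slc5a5 encodes the sodium-iodide symporter, which concentrates iodide in the thyroid (ENSMUSG00000000792, chromosome 8, 70882889 to 70892757). Slc5a5 was 1.63, 0.272 and 2.25 CPM in the controls and 76.8, 79.3 and 83.4 CPM in the knockouts. The 3 knockouts were close together and far above every control, and control 2 was the lowest control. The mean level was 57.7 times higher in the knockouts than in the controls (log2 fold change 5.84, SE 0.63, edgeR adjusted p 0.00353). Without control 2 the log2 fold change came to 5.33 (SE 0.12, edgeR adjusted p 2.00e-06), and the gene was called in all 6 fits without 1 library. With all libraries Slc5a5 passed the filter through the knockouts only, and without control 2 through either group. Control 2 had 5 counts, under the minimum, so without control 1 or control 3 the gene also passed through the knockouts only. The call with all libraries and those without control 1 or control 3 are therefore not given as support. At 27.3 CPM per kb in the knockouts, Slc5a5 was the fourth highest carrier there, after Slc2a1 (149), Slco3a1 (30.5) and Slc16a3 (27.5). The levels per kb of Slc16a3 and Slc5a5 differed by less than their spread between knockouts.

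Slc5a3 encodes SMIT1, a sodium-coupled carrier of myo-inositol, which cells use as an osmolyte (chromosome 16, 92058322 to 92087473). It was 21.3, 55.9 and 24.1 CPM in the controls and 81.3, 66.1 and 85.8 CPM in the knockouts. The groups did not overlap, and control 2 lay between the other controls and the knockouts. It was not called with all libraries (log2 fold change 1.20, SE 0.39, edgeR adjusted p 0.0764) and was higher without control 2 (1.74, SE 0.13, edgeR adjusted p 5.90e-05). Slc5a3 shares exon sequence with Mrps6, a mitochondrial ribosomal protein gene at the same locus (1.46% of its exonic bases on the same strand), so reads there cannot be assigned to either with certainty. Mrps6, named for this overlap, was called higher with all libraries (log2 fold change 1.13, SE 0.21, edgeR adjusted p 0.0157) and without control 2 (1.37), while Slc5a3 was called only without control 2.

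Slc5a9 encodes SGLT4, a carrier of mannose and fructose, and has a mean under 1 CPM. It was chosen for naming after its values were seen, as were Slc5a7, Slc5a11, Slc5a6, Slco5a1 and Slc22a14. It had 19, 11 and 19 counts in the controls and 0 in each knockout. Against a floor of 3 counts over the whole group, it was at least 16.3-fold lower in the knockouts. It passed the filter through the controls only, so its call, though counted among the 10 lower carriers, is not given as support, and it was lost without control 3 (edgeR adjusted p 0.0512). Slc5a7, for the choline carrier of cholinergic neurons, was 1.05, 15.8 and 2.41 CPM in the controls and 0.279 to 0.565 CPM in the knockouts, below every control. It was not called with all libraries (edgeR adjusted p 0.0558). Without control 2 the log2 fold change was -2.14, but in both fits Slc5a7 passed the filter through the controls only, so the call there is not given as support. Slc5a6, for a multivitamin carrier, was 3.56 to 4.90 CPM in the controls and 4.68 to 5.36 CPM in the knockouts and was not called.

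**Figure D2:**
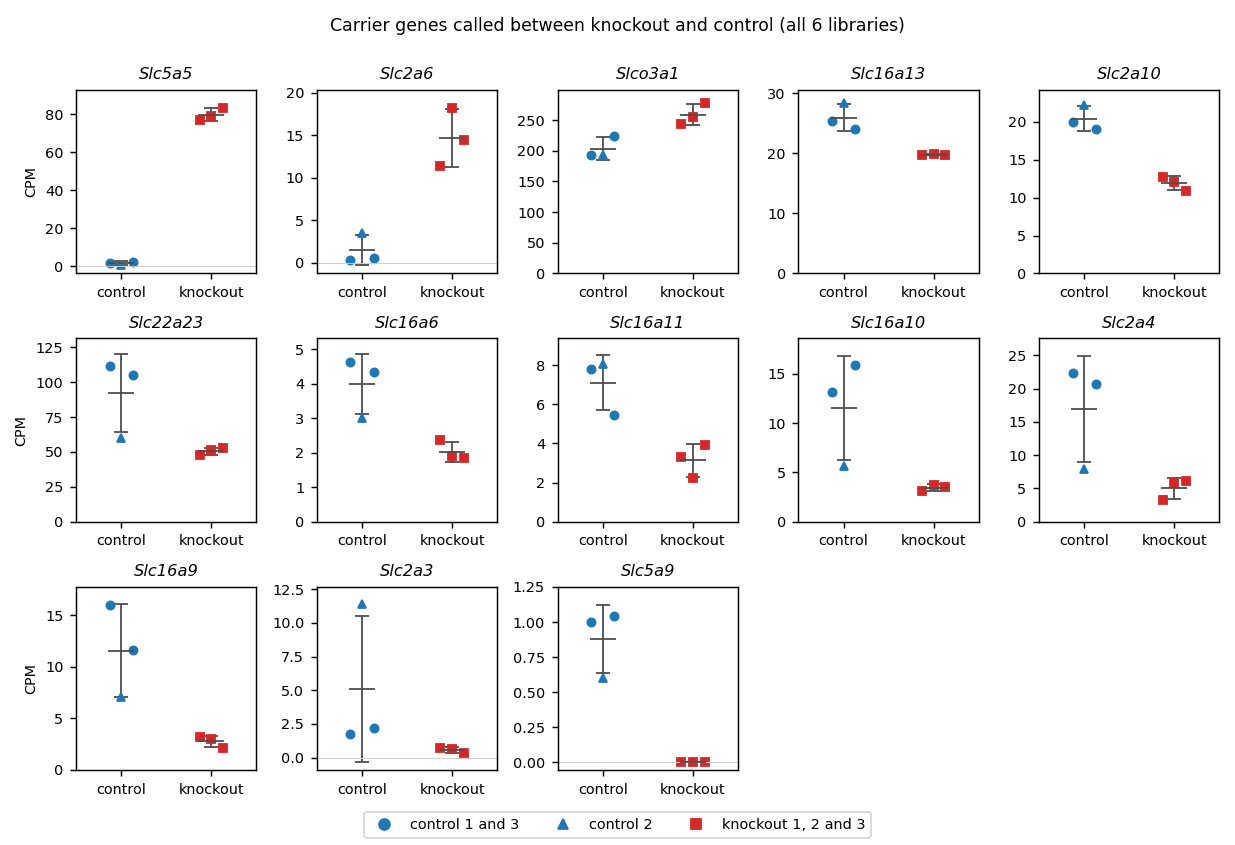
CPM of 13 called carriers in the 3 control and 3 knockout libraries, each point a library, with the mean and SD of each group (n = 3) and control 2 marked. In each panel the 3 knockouts lie wholly above or wholly below the 3 controls, and the gap is widest for Slc5a5. The genes were chosen by their call in these same libraries, so this separation is a description.

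Of 6 tested osmolyte genes, 2 were higher with all libraries, beside 13.1% of all tested genes, and 4 without control 2, beside 25.5%. Isyna1, which makes inositol phosphate from glucose phosphate, was 15.9, 18.0 and 13.8 CPM in the controls and 147, 167 and 140 CPM in the knockouts. The groups lay far apart (log2 fold change 3.25, SE 0.13, edgeR adjusted p 4.23e-04). Akr1b3, the aldose reductase that makes sorbitol, was 35.7 to 37.4 CPM in the controls and 70.4 to 75.4 CPM in the knockouts (log2 fold change 1.00, SE 0.06, edgeR adjusted p 9.91e-04). Slc6a6, the taurine carrier, named after its values were seen, was 41.9, 579 and 65.2 CPM in the controls and 332 to 374 CPM in the knockouts. Its knockouts lay above controls 1 and 3 but below control 2, and it was higher only without control 2 (log2 fold change 2.66, edgeR adjusted p 4.09e-05, against 0.60 and 0.693).

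Slc16a10 encodes MCT10, which carries aromatic amino acids and thyroid hormone (chromosome 10, 40033532 to 40142258). It was 13.2, 5.66 and 15.8 CPM in the controls and 3.08, 3.74 and 3.56 CPM in the knockouts. The knockouts lay below all controls, of which control 2 was the lowest. On the log2 scale the difference was -1.74 (SE 0.39, edgeR adjusted p 0.0274) and -2.10 without control 2 (SE 0.14, edgeR adjusted p 3.85e-05). Its call was lost in the 5 fits without another library (edgeR adjusted p up to 0.106).

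Slc16a9, for MCT9, was 16.02, 7.02 and 11.6 CPM in the controls and 3.19, 3.01 and 2.17 CPM in the knockouts (chromosome 10, 70245100 to 70285968). The groups did not overlap, and control 2 was the lowest control. The fitted log2 difference was -2.05 (SE 0.35, edgeR adjusted p 0.0116), and the call was lost without knockouts 2 or 3 (adjusted p in edgeR up to 0.0565). Without control 2 it was -2.34 (SE 0.21, edgeR adjusted p 1.33e-04). In the annotation 23.5% of its exonic bases overlap genes on the opposite strand, and the strand setting of the counting is not given in the sources used here.

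Slc16a11 and Slc16a13 are neighbours on chromosome 11 (70212752 to 70216417 and 70216789 to 70221064), and human variants at this locus are linked to type 2 diabetes. Slc16a11 was 7.80, 8.06 and 5.48 CPM in the controls and 3.29, 2.23 and 3.90 CPM in the knockouts (log2 fold change -1.18, SE 0.27, edgeR adjusted p 0.0289). Slc16a13 was 25.3, 28.3 and 23.9 CPM in the controls and 19.6, 19.9 and 19.8 CPM in the knockouts (log2 fold change -0.39, SE 0.09, edgeR adjusted p 0.0257). For both genes the knockouts lay below every control, and control 2 was the highest control. Both calls were lost without control 1 or without any 1 knockout (edgeR adjusted p up to 0.0975 and 0.0967). Both were also lost with a replicate block and a test against a 1.5-fold change. The call of Slc16a13 was lost with libraries scaled by their totals only and with no filter on low counts, and that of Slc16a11 with a term for sex. Without control 2 the log2 fold changes were -1.11 and -0.35 (edgeR adjusted p 0.0124 and 0.0105).

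Slc16a6, for MCT7, was 4.64, 2.99 and 4.33 CPM in the controls and 2.36, 1.90 and 1.84 CPM in the knockouts, without overlap (log2 fold change -0.97, SE 0.24, edgeR adjusted p 0.0342). Its call was lost in the 5 fits without a library other than control 2 (edgeR adjusted p up to 0.126), and 22.5% of its exonic bases overlap Amz2 and Arsg on the opposite strand. Without control 2 Slc16a6 was at -1.17 on the log2 scale (edgeR adjusted p 0.00266).

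Slc16a3 and Slc16a1 encode the carriers best known for lactate. Slc16a3, for MCT4, which exports lactate from glycolytic cells, was 106, 159 and 121 CPM in the controls and 141, 152 and 146 CPM in the knockouts. Slc16a1, for MCT1, which carries lactate and ketone bodies across the barrier, was 13.8, 19.5 and 15.8 CPM in the controls and 18.4, 20.6 and 18.2 CPM in the knockouts. Control 2 lay above every knockout for Slc16a3 and among them for Slc16a1, and the other two controls lay below the knockouts. Neither was called with all libraries (edgeR adjusted p 0.426 and 0.320). Without control 2 both were higher by 0.33 on the log2 scale (edgeR adjusted p 0.00642 and 0.0377).

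In the list of MCT partners and lactate genes, 4 of 7 tested were higher in both fits, beside 13.1% of all tested genes with all libraries and 25.5% without control 2. Bsg, the chaperone that takes MCT1 and MCT4 to the membrane, was 472, 595 and 508 CPM in the controls and 1000, 1047 and 893 CPM in the knockouts. Ldhb, a lactate dehydrogenase subunit, was 11.01, 20.5 and 11.4 CPM in the controls and 42.1, 57.1 and 47.0 CPM in the knockouts. In both genes all knockouts lay above all controls. The log2 fold change of Bsg was 0.90 (SE 0.12, edgeR adjusted p 0.00631) and that of Ldhb 1.77 (SE 0.28, edgeR adjusted p 0.00964), and both held in all 6 fits without 1 library.

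Among 6 tested genes for thyroid hormone handling outside the carrier families, 1 was higher and 1 lower (3 and 2 without control 2), beside 24.7% and 50.3% of all tested genes called. Crym, a cytosolic protein that binds triiodothyronine, was 0.580, 1.04 and 0.548 CPM in the controls and 21.9, 39.0 and 28.1 CPM in the knockouts. Every knockout lay far above every control (log2 fold change 5.35, SE 0.36, edgeR adjusted p 0.00123). Crym passed the filter through the knockouts only, so its call is not given as support. Slc7a5, for the amino acid carrier LAT1, which also takes thyroid hormone, was 135, 119 and 137 CPM in the controls and 66.7, 71.5 and 78.5 CPM in the knockouts. The groups did not overlap (log2 fold change -0.85, SE 0.09, edgeR adjusted p 0.00333). Dio2, the deiodinase that activates thyroxine, named after its values were seen, was 1.26, 21.5 and 3.51 CPM in the controls and 21.4, 19.5 and 22.0 CPM in the knockouts. Control 2 was at the level of the knockouts, and Dio2 was higher only without it (log2 fold change 3.11, edgeR adjusted p 3.17e-04, against 1.26 and 0.377). Thra, a thyroid hormone receptor gene named in the same way, was 25.9, 48.6 and 23.2 CPM in the controls and 52.6 to 57.8 CPM in the knockouts, and was higher only without control 2 (log2 fold change 1.13, edgeR adjusted p 4.17e-05, against 0.76 and 0.112). Thrb, the other thyroid hormone receptor gene of the list, went the other way and was called lower only without control 2.

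**Figure D3:**
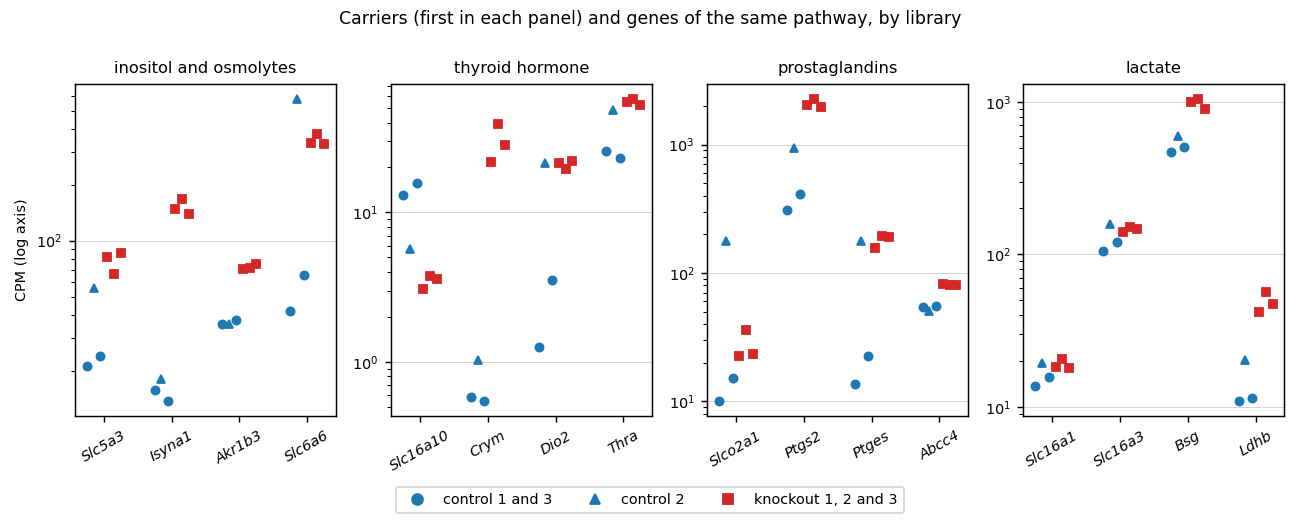
CPM (log axis) in each library of carriers and partner genes for inositol and osmolytes, thyroid hormone, prostaglandins and lactate, with control 2 as a triangle. The 3 knockouts lie above all controls for Isyna1, Crym, Ptgs2 and Ldhb, while control 2 is at or above the knockouts for Slc6a6, Dio2, Slco2a1 and Slc16a3.

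Slco3a1 was the Slco gene called with all libraries. It encodes OATP3A1, which carries prostaglandins and thyroxine (chromosome 7, 74275419 to 74554780). It was 193, 193 and 225 CPM in the controls and 243, 256 and 277 CPM in the knockouts. All knockouts lay above all controls, and control 2 did not stand apart. This was a log2 difference of 0.35 (SE 0.09, edgeR adjusted p 0.0434). The call was lost with RLE or upper-quartile scaling, no filter on low counts, a replicate block, a term for sex and a test against a 1.5-fold change. It was also lost in the 5 fits without a library other than control 2 (edgeR adjusted p up to 0.157). Without control 2 the log2 difference was 0.27 (SE 0.08, edgeR adjusted p 0.0324).

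Slco2a1 encodes the prostaglandin uptake carrier, and its direction turned on control 2 (chromosome 9, 102988712 to 103096002). It was 10.1, 178 and 15.1 CPM in the controls and 22.5, 36.2 and 23.6 CPM in the knockouts. Control 2 lay far above every other library, and the knockouts lay above controls 1 and 3. In log2 units the change came to -1.30 (SE 1.11, edgeR adjusted p 0.433) with all libraries and 1.08 (SE 0.26, edgeR adjusted p 0.0118) without control 2, where the gene was called higher. Control 2 was also the library with fibroblast markers at 13700 CPM, and their part in this value was not tested.

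Slco4a1 encodes OATP4A1, another thyroid hormone carrier (chromosome 2, 180456245 to 180474867). It was 58.7, 8.82 and 49.5 CPM in the controls and 15.8, 25.6 and 25.6 CPM in the knockouts. Control 2 was the lowest library of all, and the knockouts lay below the other two controls. It was not called with all libraries (log2 fold change -0.81, edgeR adjusted p 0.417) and was lower without control 2 (-1.31, SE 0.21, edgeR adjusted p 0.00181). Slco5a1, an orphan carrier, was 0.422, 2.02 and 0.548 CPM in the controls and 1.70 to 2.28 CPM in the knockouts, and was not called with all libraries (edgeR adjusted p 0.296). Without control 2 the log2 fold change was 1.95, but Slco5a1 passed the filter through the knockouts only, so the call there is not given as support.

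Of 8 tested genes for the synthesis and removal of prostaglandins, 3 were higher with all libraries, beside 13.1% of all tested genes. Without control 2, 7 were higher and 1 lower, beside 25.5% and 24.8%. Ptgs2, the inducible cyclooxygenase, was 311, 934 and 411 CPM in the controls and 2050, 2274 and 1958 CPM in the knockouts. All knockouts lay above control 2, which was the highest control (log2 fold change 1.92, SE 0.43, edgeR adjusted p 0.0266). Ptges2, a prostaglandin E synthase, was 11.2, 15.7 and 11.6 CPM in the controls and 19.7, 23.7 and 23.1 CPM in the knockouts, without overlap (log2 fold change 0.79, SE 0.16, edgeR adjusted p 0.0210). Both calls were lost in the 5 fits without a library other than control 2 (edgeR adjusted p up to 0.0936 and 0.0863). Ptges, the inducible prostaglandin E synthase, named after its values were seen, was 13.5, 179 and 22.7 CPM in the controls and 156 to 195 CPM in the knockouts, so that control 2 was level with the knockouts (log2 fold change 1.33, edgeR adjusted p 0.356, and 3.28, edgeR adjusted p 3.67e-05, without control 2). Abcc4, the efflux pump that exports prostaglandins, named in the same way, was 54.7, 50.9 and 55.1 CPM in the controls and 80.8 to 82.1 CPM in the knockouts (log2 fold change 0.60, SE 0.06, edgeR adjusted p 0.00256).

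Of the Slc22a genes, 1 was called with all libraries. Slc22a23, an orphan carrier (chromosome 13, 34179158 to 34345182), was 112, 60.3 and 105 CPM in the controls and 47.8, 51.1 and 52.8 CPM in the knockouts. The knockouts lay below all controls, with control 2 close to them. The fit gave a log2 change of -0.87 (SE 0.24, edgeR adjusted p 0.0458) and -1.14 without control 2 (SE 0.06, edgeR adjusted p 1.56e-05). The call was lost with libraries scaled by their totals only, with limma voom and with no filter on low counts. It was also lost with a replicate block, a term for sex and a test against a 1.5-fold change. The 5 fits without another library lost it too (edgeR adjusted p up to 0.147). Slc22a23 is the gene whose window, printed above, holds CTTCCGG past the start site.

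Slc22a5 encodes OCTN2, the carnitine carrier (chromosome 11, 53864542 to 53891660). It was 18.4, 16.6 and 17.04 CPM in the controls and 16.4, 18.9 and 20.4 CPM in the knockouts. The groups overlapped, and the log2 fold change was 0.10 (95% interval -0.17 to 0.37, edgeR adjusted p 0.546), and 0.03 without control 2 (edgeR adjusted p 0.844). Its neighbour Slc22a21 shares transcript sequence with it (26.3% of the 50-base sequences of Slc22a5 occur in other transcripts), so the split of reads between them is uncertain. Slc22a17, a receptor for lipocalin 2, was 9.80, 20.3 and 8.93 CPM in the controls and 6.97 to 9.69 CPM in the knockouts and was not called (log2 fold change -0.69, edgeR adjusted p 0.212, and -0.25, edgeR adjusted p 0.257, without control 2).

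Slc22a15 was 16.8, 11.7 and 17.6 CPM in the controls and 11.1, 13.3 and 12.9 CPM in the knockouts. It was lower only without control 2 (log2 fold change -0.50, edgeR adjusted p 0.00848, against -0.31 and 0.273). Slc22a14 was lower without control 2 too (-0.82, edgeR adjusted p 0.0285, against -0.23 and 0.873). In the list for carnitine use, 0 of 6 tested were called with all libraries, beside 24.7% of all tested genes. Without control 2, 2 were higher and 2 lower, beside 50.3% called. Cpt1a, the entry enzyme of mitochondrial fatty acid oxidation, was 140, 112 and 140 CPM in the controls and 123, 126 and 122 CPM in the knockouts. It was not called with all libraries (log2 fold change -0.08, edgeR adjusted p 0.618) and was called lower without control 2.

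Among genes that anchor organic ion carriers or export their cargo, 2 of 6 tested were higher and 1 lower (2 and 3 without control 2), beside 24.7% and 50.3% of all tested genes called. Slc9a3r1, a PDZ scaffold protein, was 24.8, 19.7 and 26.3 CPM in the controls and 54.2, 51.8 and 49.9 CPM in the knockouts, without overlap (log2 fold change 1.14, SE 0.12, edgeR adjusted p 0.00358). Abcg2, a drug efflux pump of the barrier, was 144, 107 and 137 CPM in the controls and 86.9, 90.4 and 89.3 CPM in the knockouts. Its knockouts lay below all controls (log2 fold change -0.54, SE 0.12, edgeR adjusted p 0.0249), but the call was lost in the 5 fits without a library other than control 2 (edgeR adjusted p up to 0.0986).

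Several carriers that define the blood-brain barrier in tissue were faint in these cultures. Slc2a1 and Slc16a1 were above 5 CPM on average and have been given above. Slco1c1, which carries thyroxine into brain, had 6 counts in all, 5 of them in control 2 and 1 in knockout 1. Slc22a8, an organic anion carrier that clears the brain, had 10 counts, 6 of them in control 2. Its ratio of counts, control over knockout, was 2.32 with an exact interval of 0.530 to 13.9, which covers counting error only. At this depth 3 counts were worth 0.154 to 0.167 CPM in a library.

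Mfsd2a (chromosome 4, 122946850 to 122961188) was 0.263, 1.47 and 0.384 CPM in the controls and 1.23, 1.28 and 1.56 CPM in the knockouts. Control 2 lay among the knockouts, and the other two controls lay below. Mfsd2a was not called with all libraries (log2 fold change 0.94, edgeR adjusted p 0.326) and was higher without control 2 (2.02, SE 0.37, edgeR adjusted p 0.00364). In both fits Mfsd2a passed the filter through the knockouts only, so its call without control 2 is not given as support.

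Slco1a4, for OATP1A4, a steroid conjugate and drug carrier of mouse brain capillaries, was 3.58, 0.109 and 1.92 CPM in the controls and 4.83, 3.91 and 4.79 CPM in the knockouts. All knockouts lay above all controls and control 2 was near 0, but it was not called in either fit (log2 fold change 1.26 and 0.67, edgeR adjusted p 0.350 and 0.0896). Its neighbour Slco1a5 had 171, 65 and 152 counts in the controls and 214, 189 and 125 counts in the knockouts, with overlap, and was not called (log2 fold change 0.45, edgeR adjusted p 0.440, and 0.10, edgeR adjusted p 0.718, without control 2).

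Slco2b1, for OATP2B1, which carries steroid sulphates and thyroxine (chromosome 7, 99657804 to 99711340), had 83, 9 and 63 counts in the controls and 3, 4 and 9 counts in the knockouts. In CPM it was 4.37, 0.490 and 3.45 against 0.154, 0.223 and 0.501. Control 2 was at the level of the knockouts, and controls 1 and 3 were far above. It did not pass the filter with all libraries. Without control 2 it passed through the controls only, so its call there, with a log2 fold change of -3.76, is a description and is not given as support. Its window at the distal start site, printed above, holds both motifs, and its other windows do not.

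**Figure D4:**
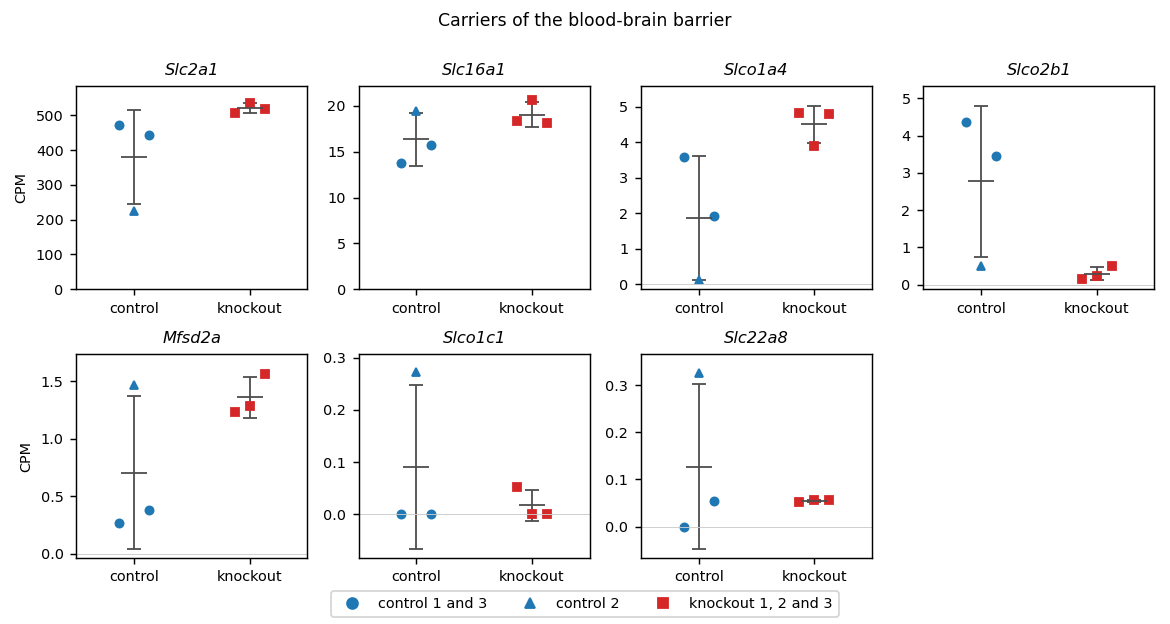
CPM of 7 carriers known from the blood-brain barrier in each library, with the mean and SD of each group (n = 3) and control 2 marked. Slc2a1 is 224 to 537 CPM over all libraries, and Slc22a8 and Slco1c1 are under 1 CPM throughout.

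The control levels of these genes differed mostly between control 2 and the other two. Over the 25 carriers with a mean of at least 5 CPM, the median coefficient of variation was 35.6% in the 3 controls, 6.54% in controls 1 and 3 and 10.1% in the knockouts. Over all 10541 tested genes of that level it was 11.2%, 4.06% and 5.84%. Among the 49 carriers with at least 10 counts, control 2 was above 2 times the mean of the other controls in 16 and under 1/2 of it in 10. Of the 12 carriers called only without control 2, Slco2a1 was the one that changed sign, and Slco2b1 was not tested with all libraries.

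**Figure D5:**
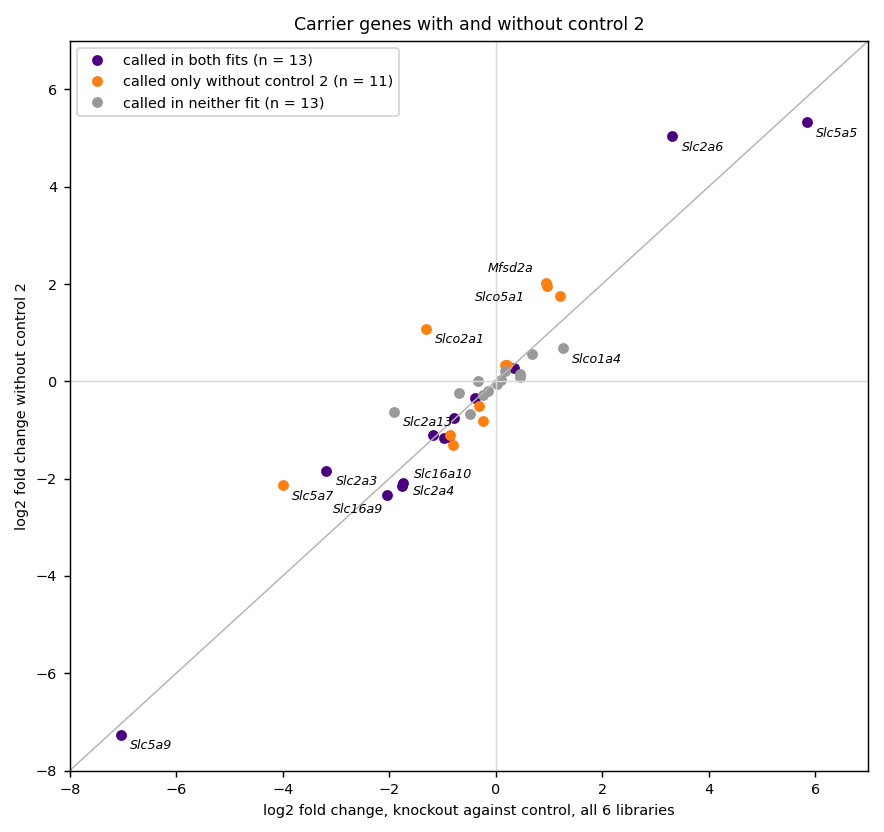
Log2 fold change, knockout against control, of 37 tested carriers with all 6 libraries (x axis) and without control 2 (y axis), coloured by call, with the line of equal values. Slco2a1 lies in the upper left, where the sign differs, and Slc5a5 and Slc2a6 lie in the upper right. The fitted value of Slc5a9 rests on 0 counts in the knockouts and is no measure of its fold.

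Of the 33 carriers with under 10 counts, 16 were among the 26 Slc22a genes, among them Slc22a6 and Slc22a7, the kidney and liver organic anion carriers, and Slc22a3, the extraneuronal monoamine carrier, each with 0 counts. A count of 0 in a single library allows up to 3 counts, which is 0.154 to 0.167 CPM there. For 0 counts over all libraries together, the bound in CPM is lower. Slc5a1 and Slc5a2, the gut and kidney sodium-glucose carriers, had 2 and 4 counts, and Slc2a5, the fructose carrier, had 8. Slco1b2, the liver bilirubin and bile acid carrier, had 1 count and Slco1a6 had 8. Of the 11 carriers with at least 10 counts that the filter removed, Slc22a18 had 75 counts, 32 of them in control 2 and 23 in knockout 2. Slc2a2, the GLUT2 of liver and pancreatic beta cells, had 23 counts, with at most 6 in a library. Slc16a7, for MCT2, had 28 counts, 13 of them in control 2. Slc5a11, an inositol carrier, had 11 counts in the controls and 2 in the knockouts, a ratio of 5.48 with an exact interval of 1.20 to 50.8.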

How the data were processed

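Polyadenylated RNA of sorted cells was sequenced, per the labels' protocols, with one of the TruSeq kits RNA v2 and Stranded mRNA. The kit of each library is not given. The authors deposited whole-number counts per gene for 52636 Ensembl identifiers and 6 libraries, used as deposited. FastQC 0.11.5, STAR 2.7.6a and the build GRCm38 are named per the submitters' processing notes. For the counting, the program, strand setting and annotation were not given in the sources used here, so reads of overlapping or near-identical genes may have been split or merged. Of the identifiers, 52489 matched GENCODE M21, which gave symbols and positions, and the 147 others held at most 0.0061% of a library's counts.

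Groups and replicate numbers came from the sample titles. All pairs of libraries differed by more than sampling noise (lowest chi-square per degree of freedom 5.80), so each was kept. All genes were fitted in R 4.3.3 with edgeR 4.0.16 (filterByExpr by group, TMM, two-sided quasi-likelihood test, no covariate), leaving 13901 genes. The SE is the log2 fold change divided by the square root of F. The script was tested on simulated data. Alternatives were RLE, upper-quartile and library-size scaling, DESeq2 1.42.0, voom (limma 3.58.1), other filters and thresholds, a replicate block, a term for sex, and leaving out each library.

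Named were tested carriers with a mean of at least 5 CPM, called ones of at least 1 CPM, the barrier carriers, and up to 2 genes of each companion list. A carrier is counted in the totals but not reported here. The members and lists were chosen with earlier results of these data known. Intervals of counts are exact at 95% and cover counting error only.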

Additional observations from a re-analysis of the deposited data

How the results depend on the processing

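With 1 library left out, the carriers called higher numbered 2 to 10 and those called lower 2 to 16, against 4 and 10 with all libraries, and both upper ends came from the fit without control 2. A test against a 1.5-fold change left 2 higher and 2 lower, and an adjusted p under 0.01 left 2 higher and 1 lower. The carriers called lower numbered 6 with limma voom, 6 with no filter on low counts, and 5 with sex as a term. With sex as a term 8 of the 14 calls were kept. Those of Slc16a10, Slc16a11, Slc2a3, Slc2a4, Slc22a23 and Slco3a1 were lost. With the replicate number as a block, 3 were higher and 2 lower, and 5 of the 14 calls were kept. The deviations of same-numbered libraries from their group means correlated at -0.174, 0.161 and 0.254, so the numbers were not taken as pairs. The cause of these shifts was not tested. With RLE or upper-quartile scaling the counts were 3 higher and 10 lower, with library size only 4 and 8, and with DESeq2 5 and 14. Slc5a5 and Slc2a10 kept their calls in each of the 6 fits without 1 library. For Slc5a5 the calls without control 1 or control 3 are not given as support, because it passed the filter there through the knockouts only. Slco2a1 ranged from -1.81 to 1.08 on the log2 scale with 1 library left out, and was reversed only without control 2 (1.08). Of 448 values for 30 genes under these settings, 363 kept direction and side of the threshold, 73 lost the call, 11 gained it and 1 changed sign. Carriers of a few CPM rest on few counts, and small differences there were not detectable at this depth.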
